A study of Equus caballus with 6 samples.

Results

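The transcripts described here encode the transforming growth factor beta (TGF-beta) ligands TGFB1, TGFB2 and TGFB3, the activin A subunit INHBA, the receptors TGFBR1 and TGFBR2, the TGF-beta-induced matrix protein TGFBI, and CTGF and CYR61, the matricellular proteins also called CCN2 and CCN1. Every probe set that the platform annotation assigns to 1 of these 9 symbols alone was taken, which gave 10 of the 24016 probe sets besides controls, 2 of them for TGFBR2 and 1 for each other gene. The samples were lamellar hoof tissue, the folded epidermis and dermis that hold the coffin bone to the hoof wall, from the right foot of Equus caballus, with 3 laminitis samples numbered 1, 3 and 4 as replicates and 3 normal ones numbered 2, 3 and 4. Laminitis is the disease in which that attachment fails, and the study asked which transcripts differ with it. The labels give no cause or stage of the laminitis, no age, breed or sex and no treatment, and they do not say whether the samples are from separate horses. The p-values thus set a group difference against the spread between these samples only, which may be technical. Each sample was hybridised to a bovine array, so a probe set reads horse RNA through cattle sequence and its signal is compared between arrays. Where signals of different probe sets are ranked or summed, as for cell type markers, the result does not give relative RNA amounts.

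TGF-beta ligands are secreted in a latent complex and, once released, bind TGFBR2, which recruits and phosphorylates TGFBR1. TGFBR1 then phosphorylates SMAD2 and SMAD3, which enter the nucleus with SMAD4 and switch on matrix and feedback genes. In skin the pathway is known for restraining keratinocyte growth, for fibroblast matrix production and for scarring, and CTGF and CYR61 are induced both by it and by the YAP and TAZ coactivators.

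No TGF-beta ligand, receptor or CCN gene that was tested passed as different between laminitis and normal lamellae. To be tested, a probe set had to exceed the median of its array on at least 3 of the 6 arrays, which held for 7 of the 10 (TGFB1, TGFB2, TGFBR1, TGFBR2, TGFBI, CTGF and CYR61, with 1 probe set each) and for 12519 probe sets in all. In limma with Benjamini-Hochberg adjustment over all of these, 0 of the 7 were called in either direction at an adjusted p under 0.05, beside 0% of all tested probe sets called higher and 0% called lower, the smallest adjusted p over the table being 0.101. With no filter 0 of the 10 were called, beside 0% of all 24016 probe sets. Without adjustment, 0 of the 7 had a p under 0.05, beside 9.79% of all tested probe sets. The 3 laminitis and 3 normal values overlapped for each of the 7, while they did not overlap for 16.8% of all tested probe sets. The 7 log2 differences had a median of 0.14, with 4 positive and 3 negative, and the median over all tested probe sets was -0.06. Adjusted p ran from 0.554 for TGFB1 to 0.938 for TGFBR1.

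**Figure D1:**
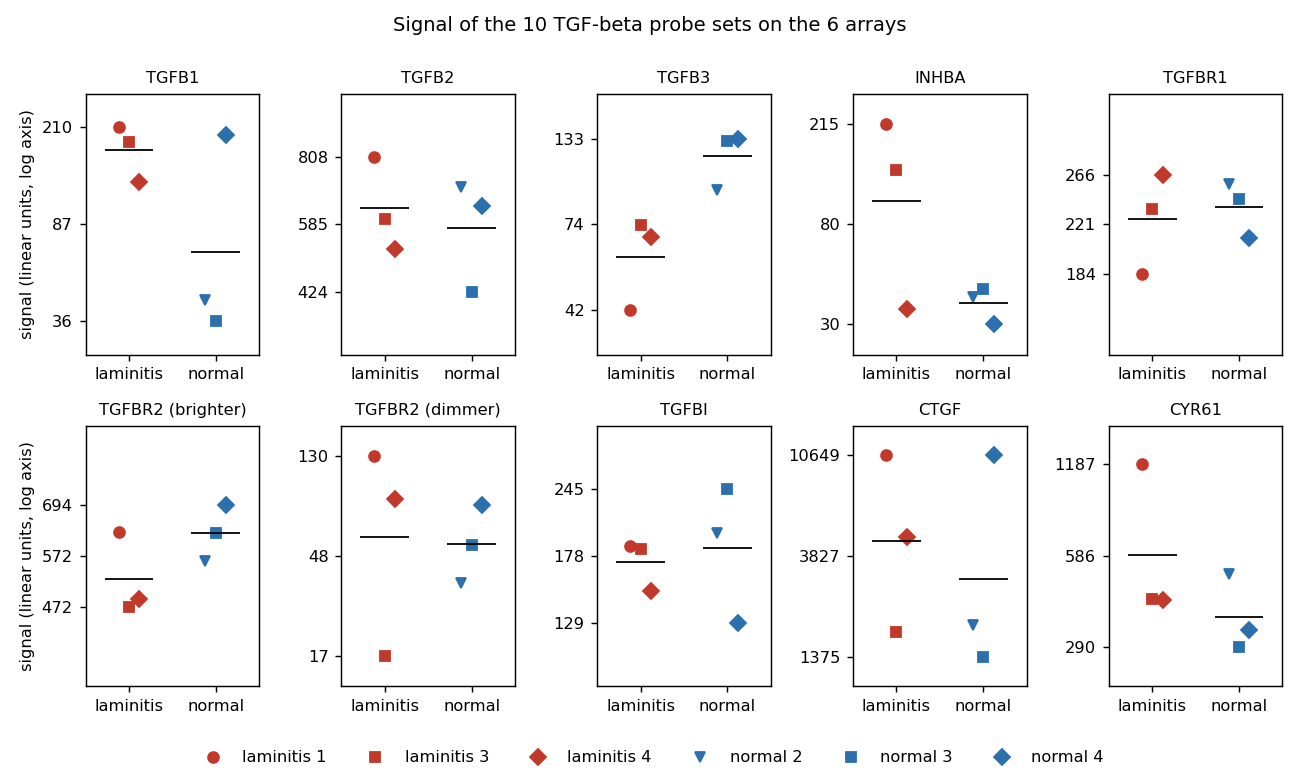
Signal in deposited linear units (log axis, scaled separately in each panel) of the 10 probe sets, with laminitis left (red) and normal right (blue), 1 point per array with its replicate number as the symbol, and bars at the geometric mean. The groups overlap in each panel except that of TGFB3, whose 3 laminitis points lie below its 3 normal points.

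Among the ligands, TGFB1, the isoform best known from platelets, immune cells and healing wounds, had the highest log2 difference of the tested genes, and its size depended on which normal arrays were used. Its signal was 210.4, 184.4 and 128.1 on laminitis replicates 1, 3 and 4, against 44.0, 36.4 and 196.6 on normal replicates 2, 3 and 4. All laminitis values thus lay well above normal replicates 2 and 3, whose values were under their arrays' medians of 96.4 and 96.6, while normal replicate 4 stood among the laminitis arrays. Mean signals were 174 ± 42.1 in laminitis and 92.3 ± 90.4 in normal tissue (SD, n = 3 each). The fold of geometric means was 2.51, or 1.33 ± 0.63 on the log2 scale (SE, limma adjusted p 0.554), with a 95% interval from -0.15 to 2.81. Without normal replicate 4 the log2 difference was 2.09 ± 0.29, at a limma adjusted p of 0.237, while without normal replicate 3 it was 0.88 and without normal replicate 2 it was 1.01. With 64 added to every signal before log2 the TGFB1 difference was 0.74.

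TGFB2, the isoform prominent in epithelial and embryonic tissues, read 807.6, 600.9 and 520.8 in laminitis and 700.1, 424.2 and 638.0 in normal tissue. Its values were interleaved, and each group spanned less than a 2-fold range. The log2 difference was 0.14 ± 0.28 (limma adjusted p 0.888, 95% interval -0.52 to 0.79), so the interval holds differences of up to 1.73-fold higher in laminitis. It turned negative, to -0.04, without laminitis replicate 1 and to -0.08 without normal replicate 3.

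TGFB3, which in mice is tied to palate fusion and to healing with less scarring, was the 1 gene of the 9 whose groups did not overlap, and it was too dim to be tested under the filter used. It gave 41.8, 74.2 and 68.2 on the laminitis arrays and 93.9, 131.0 and 132.7 on the normal arrays. Each laminitis value was below its array's median, and normal replicates 3 and 4 were above theirs. The normal geometric mean was 1.98 times the laminitis one, a log2 difference of -0.98. In a limma fit with no filter on dim probe sets the SE was 0.31 and the adjusted p 0.593. Without the filter, 8.32% of 24016 probe sets had every laminitis value below every normal one, and 1 of the 10 described here did. With 64 added before log2 the TGFB3 difference was -0.55, and leaving out 1 array moved it between -1.15 and -0.73.

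INHBA, whose dimer activin A signals through SMAD2 and SMAD3 as TGF-beta does and is induced in wounded skin, separated the laminitis samples from each other. Its signal was 215.3 and 137.2 on laminitis replicates 1 and 3 but 34.8 on laminitis replicate 4, against 39.3, 42.5 and 29.9 on the normal arrays. The normal arrays agreed within a 1.42-fold range and the laminitis arrays spread over 6.18-fold. With 2 arrays above the median INHBA was not tested under the filter. The log2 difference was 1.45, and in the limma fit with no filter its adjusted p was 0.678. It was 2.22 without laminitis replicate 4 and 0.91 without laminitis replicate 1.

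TGFBR1 and the brighter TGFBR2 probe set had the narrowest ranges over the 6 arrays, 1.45-fold and 1.47-fold. TGFBR1, the type I receptor kinase, read 183.7, 234.1 and 265.7 in laminitis and 256.6, 243.2 and 210.1 in normal tissue, and its highest and lowest values were both laminitis arrays. Its log2 difference of -0.07 ± 0.22 (limma adjusted p 0.938) had a 95% interval from -0.58 to 0.45. The sign of TGFBR1 turned when arrays were centred on their medians, to 0.0028, so no direction can be given.

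For TGFBR2, the type II receptor that binds the ligand, the brighter probe set gave 626.5, 472.2 and 486.3 in laminitis and 561.6, 624.7 and 693.5 in normal tissue. Laminitis replicates 3 and 4 lay below all normal arrays, and laminitis replicate 1 lay above normal replicates 2 and 3. The log2 difference was -0.25 ± 0.21 (limma adjusted p 0.720), with a 95% interval from -0.74 to 0.24. The dimmer probe set, above its array median on 1 of 6 arrays and not tested, gave 129.8, 17.4 and 83.8 in laminitis and 36.4, 53.3 and 79.3 in normal tissue. Its laminitis values spanned the normal ones on both sides, at a log2 difference of 0.10, and its lowest value, on laminitis replicate 3, was on the array where the brighter probe set was lowest too. The difference was 0.96 without laminitis replicate 3 and -0.49 without laminitis replicate 1, so the dimmer probe set gives no direction.

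Among the targets, TGFBI, a secreted matrix protein that binds collagen and integrins, had groups that overlapped fully. Its signal was 186.4, 183.4 and 150.7 in laminitis, against 198.2, 244.8 and 129.3 in normal tissue, so the normal arrays held both the highest and the lowest value. The log2 difference was -0.10 ± 0.28 (limma adjusted p 0.927, 95% interval -0.75 to 0.56). The value was 0.11 without normal replicate 3 and 0.0034 without laminitis replicate 4.

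CTGF, which promotes matrix production and binds growth factors at the cell surface, was bright on every array and had the widest interval of the 7. It read 10647, 1760 and 4629 on laminitis replicates 1, 3 and 4 and 1902, 1375 and 10649 on normal replicates 2, 3 and 4. A laminitis array and a normal array thus shared almost the same top value, and the other 4 arrays ran between 1375 and 4629. Mean signals were 5678 ± 4536 in laminitis and 4642 ± 5209 in normal tissue (SD, n = 3 each), with a 7.74-fold range among normal arrays and a 6.05-fold range among laminitis arrays. The log2 difference of 0.55 ± 0.91 (limma adjusted p 0.864) had a 95% interval from -1.60 to 2.70, which reaches a 6.49-fold higher level in laminitis. Without normal replicate 4 it was 1.45, without laminitis replicate 1 it was -0.09 and without normal replicate 3 it was -0.02, so its direction rested on single arrays.

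CYR61, a CCN protein that acts on adhesion and vessel growth and, in mice, on fibroblast senescence in wounds, was high on 1 laminitis array. It gave 1187, 419.6 and 416.4 in laminitis and 511.4, 289.6 and 330.0 in normal tissue. Laminitis replicates 3 and 4 lay between normal replicate 4 and normal replicate 2, and laminitis replicate 1 lay above the rest. The log2 difference was 0.70 ± 0.46 (limma adjusted p 0.650, 95% interval -0.38 to 1.77). Without laminitis replicate 1 it was 0.19.

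**Figure D2:**
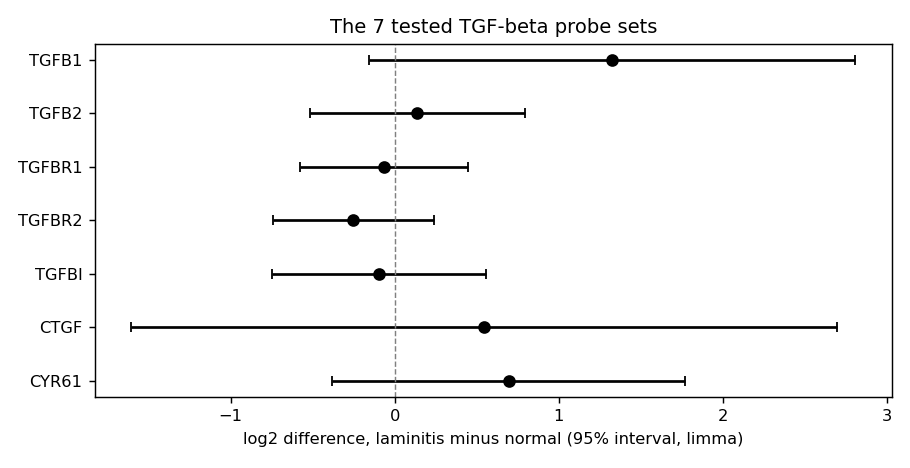
Log2 difference, laminitis minus normal, of the 7 tested probe sets (points) with limma's 95% interval (bars). Each interval holds 0, and that of CTGF is the widest, from -1.60 to 2.70.

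Laminitis replicate 1 stood at an end of the range for most of these genes. It held the highest value of 5 of the 10 probe sets (TGFB1, TGFB2, INHBA, the dimmer TGFBR2 probe set and CYR61) and the lowest value of 2 (TGFB3 and TGFBR1). Over all 24016 probe sets this array was highest for 16.8% and lowest for 22.5%. Normal replicate 3 was lowest for 4 of the 10, namely TGFB1, TGFB2, CTGF and CYR61, where it was lowest for 13.2% of all probe sets. Normal replicate 4 was highest for 3, namely TGFB3, the brighter TGFBR2 probe set and CTGF, and lowest for 2, INHBA and TGFBI. Over all probe sets that array was highest for 15.6% and lowest for 16.4%.

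Across the 6 arrays the 45 pairs of probe sets had Pearson correlations of log2 signal from -0.89 (TGFB3 with CYR61) to 0.80 (TGFB2 with CYR61), given as a description of 6 points that share their arrays. TGFB1 and CTGF had a correlation of 0.73, and CTGF and CYR61 one of 0.47. Normal replicate 4 was at the top for CTGF and below the mean for CYR61. Of 6150 other genes, DUSP1, a MAP kinase phosphatase of the immediate early response, was closest to CTGF (Pearson r 0.99, Spearman rho 0.89, n = 6), followed by GNGT2 (0.97) and WDR13 (0.96). DUSP1 read 427.2, 286.5 and 346.4 in laminitis and 273.2, 255.9 and 397.2 in normal tissue, a much smaller span than that of CTGF, and 31 genes reached an r of at least 0.9. CYR61 was closest to NUPR1, a stress-induced chromatin protein (r 0.98), SMARCB1 (0.98) and DUS4L (0.97). TGFB1 was closest to DDB1 (0.98), GMPS (0.97) and the Notch ligand DLL4 (0.97), and TGFBI to ACHE (0.98), MAGEF1 (0.98) and KEAP1 (0.97). Such values come from a search among 6150 genes over 6 arrays.

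**Figure D3:**
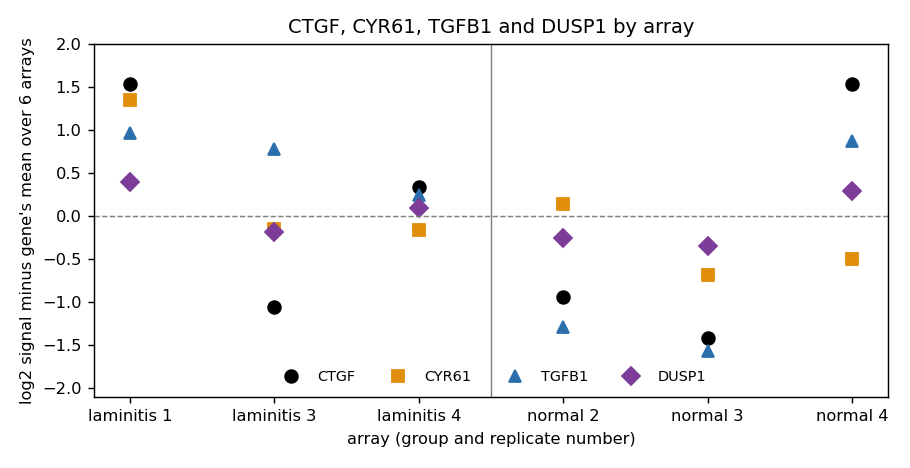
Log2 signal of CTGF, CYR61, TGFB1 and DUSP1 on each array minus the gene's mean over the 6 arrays, with laminitis arrays left of the grey line and normal arrays right of it. CTGF and DUSP1 are highest on laminitis replicate 1 and normal replicate 4 and lowest on normal replicate 3, and CYR61 stands out on laminitis replicate 1 alone.

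Other genes of the pathway were read from 8 lists holding 176 symbols, of which 76 genes were tested, each through its brightest probe set. None of the 76 passed over all tested probe sets in limma with Benjamini-Hochberg adjustment, and 11 (14.5%) had an unadjusted p under 0.05, beside 9.79% of all 6151 genes tested. The groups did not overlap for 15 of the 76, or 19.7%, with 9 higher and 6 lower in laminitis, beside 17.1% of all genes tested. Both shares lie near those over all genes. The median log2 difference was 0.05 over the 76 and -0.03 over all genes.

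Of 9 tested inhibitors and feedback regulators 0 were called, with a list median of -0.13. The groups did not overlap for 3 of the 9, beside 17.1% of all genes tested, with BAMBI and TGIF1 higher and DCN lower. BAMBI, a decoy receptor that lacks a kinase and is itself a TGF-beta and BMP target, read 252.7, 223.4 and 142.3 in laminitis and 49.4, 16.9 and 34.4 in normal tissue. Each laminitis value was above its array's median and each normal one below, so BAMBI entered the test through the laminitis arrays alone and its separation is not independent of the filter. The log2 difference was 2.71 ± 0.43 (limma adjusted p 0.174), with a size that depends on the dim normal signals, and with 64 added before log2 it was 1.46, against -1.55 for DCN. TGIF1, a corepressor that binds SMAD2, read 821.4, 1330 and 927.2 in laminitis and 416.2, 391.1 and 407.4 in normal tissue. The lowest laminitis value of TGIF1 was thus almost double the highest normal one, at a log2 difference of 1.31 ± 0.23 (limma adjusted p 0.202). DCN, decorin, a collagen-binding proteoglycan that also sequesters TGF-beta, read 724.3, 786.8 and 1199 in laminitis and 2365, 1685 and 4898 in normal tissue. Its log2 difference was -1.61 ± 0.42 (limma adjusted p 0.345), and -1.18 without normal replicate 4, the highest array.

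The SMAD list had 7 tested genes, 0 of them called, with a median of 0.15. The groups did not overlap for 1 gene that was higher and 1 that was lower, beside 17.1% of all genes tested. SMAD2, a carrier of the TGF-beta and activin signal, read 1248, 1242 and 1164 in laminitis and 822.5, 844.8 and 601.0 in normal tissue, without overlap (log2 0.70 ± 0.21, limma adjusted p 0.404). SMAD5, which carries the BMP signal, read 89.4, 90.1 and 102.3 in laminitis and 155.4, 168.8 and 149.0 in normal tissue, also without overlap (-0.75 ± 0.18, limma adjusted p 0.323). Its laminitis values were little above their arrays' medians. With 64 added before log2 the difference was -0.49 for SMAD5 and 0.66 for SMAD2. These 2 SMADs lay on opposite sides, and the acetyltransferase CREBBP had 0.26 ± 0.29. SMAD3, the partner of SMAD2, had -0.01 ± 0.26, and SMAD4 had 0.17 ± 0.28. SMAD3 and SMAD4 were named after their values were seen.

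Among 29 TGF-beta response genes 0 were called, 20 differences were positive and 9 negative, and the median was 0.06. The groups did not overlap for 3 genes that were higher and 2 that were lower, beside 17.1% of all genes tested. KLF10, an early TGF-beta-inducible transcription factor, read 1335, 1545 and 1155 in laminitis and 757.7, 532.9 and 670.2 in normal tissue. The groups did not overlap, and the KLF10 difference was 1.05 ± 0.22 on the log2 scale (limma adjusted p 0.281), with 0.43 ± 0.18 by its other probe set. TSC22D1, another early TGF-beta response gene, had 0.80 ± 0.31 and TAGLN, a smooth muscle and myofibroblast actin-binding protein, had -0.83 ± 0.34, with limma adjusted p of 0.494 and 0.506.

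In the other lists 0 genes were called. There the groups did not overlap for GDF7, ITGB5 and TEAD4, which were higher, and for ARHGEF17 and BIRC5, which were lower. This stands beside 17.1% of all genes tested. BMP2, a bone morphogenetic protein, had the highest difference of 5 other ligands, at 1.06 ± 0.42 with overlapping groups (limma adjusted p 0.494), next to GDF7 at 0.28 ± 0.20 and BMP4 at 0.21 ± 0.23, and the list's median was 0.21. The 6 other receptors had a median of -0.11, and those of smallest p were TGFBRAP1 (-0.38 ± 0.31), ACVR2A (0.25 ± 0.23) and BMPR1B (0.24 ± 0.33). Of 9 latency and activation genes, FBN1, the microfibril protein that holds latent TGF-beta in the matrix, had -0.71 ± 0.42, the integrin subunit ITGB5 had 0.28 ± 0.18 and THBS1, which can release the ligand, had 0.32 ± 0.26, with a list median of 0.10. ITGB5 and THBS1 turned negative under quantile and under cyclic loess normalization. The other ITGB5 probe set had -0.32 ± 0.51, and other THBS1 probe sets ran from -0.95 to 0.15. Among 10 genes of the YAP and TAZ list the median was -0.03, with TEAD4, a DNA-binding partner of YAP, at 0.62 ± 0.26, ARHGEF17 at -0.63 ± 0.27 and BIRC5 at -0.52 ± 0.24. CCN5 was the 1 tested gene among the other CCN proteins, at -0.12 ± 0.23.

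**Figure D4:**
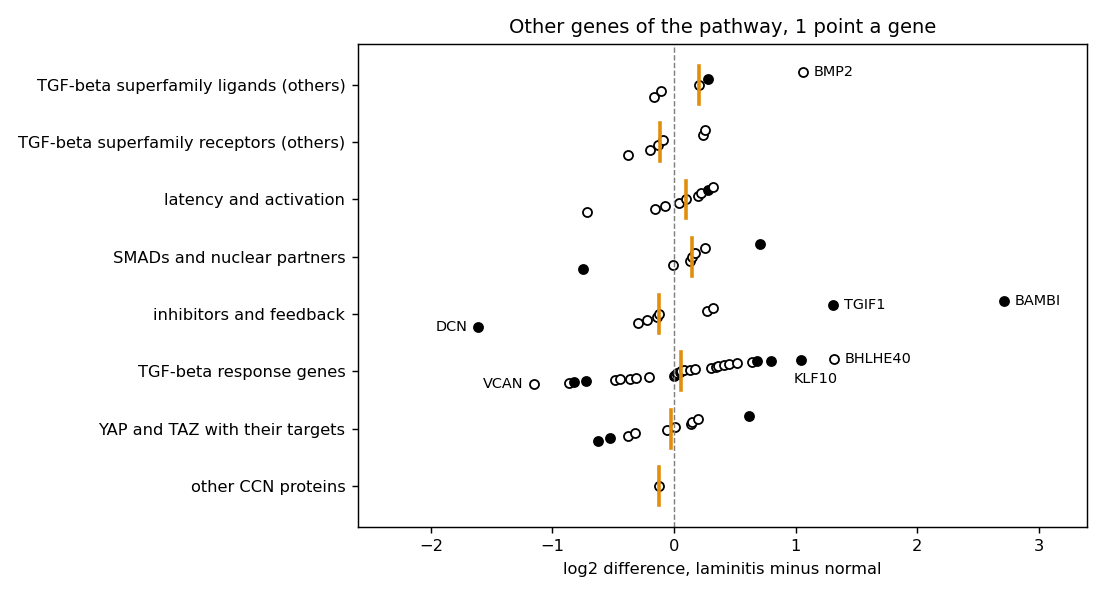
Log2 difference, laminitis minus normal, of the tested genes in the 8 pathway lists, 1 point per gene, filled where the groups do not overlap, with the list median as an orange bar and names beyond 1 in either direction. BAMBI and TGIF1 on the right and DCN on the left are the outermost filled points.

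**Figure D5:**
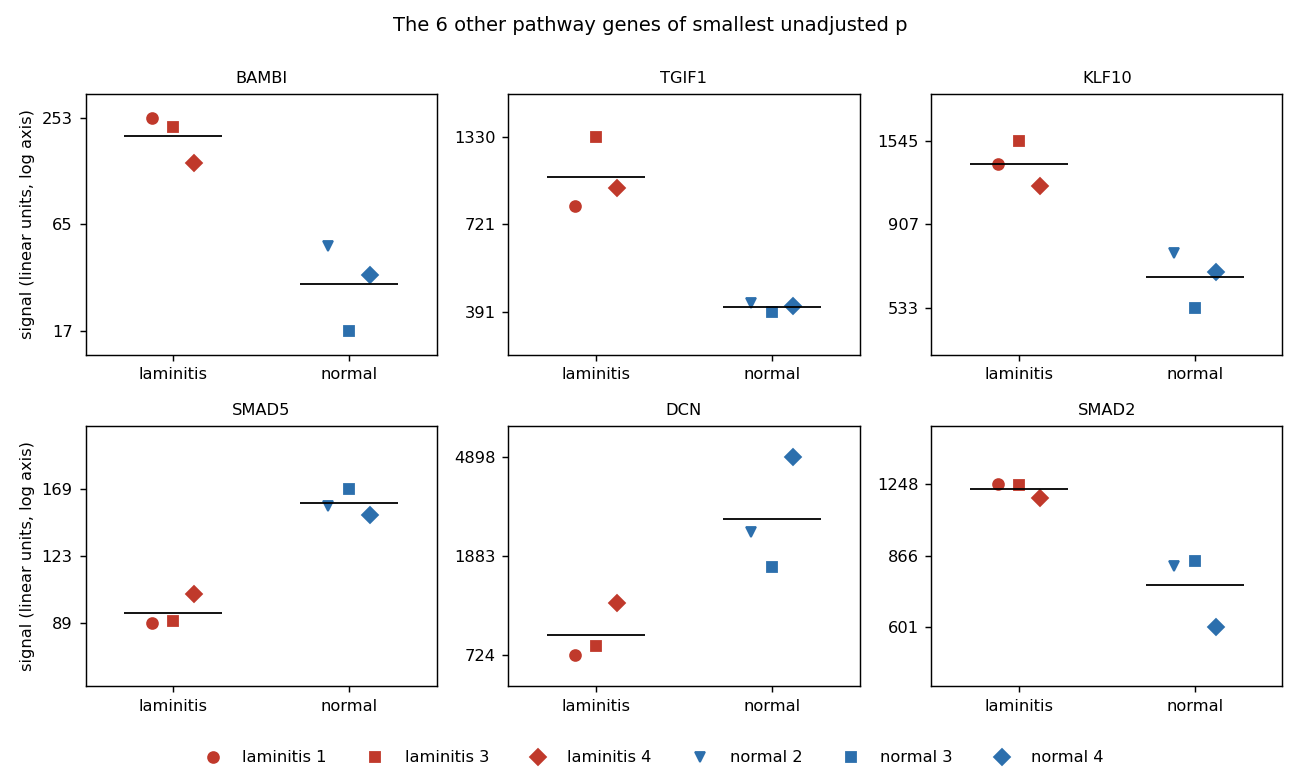
Signal in deposited linear units (log axis, scaled per panel) of the 6 listed genes of smallest unadjusted p, laminitis left (red) and normal right (blue), 1 point per array and bars at the geometric mean. The groups do not overlap in any of the 6 panels, which largely follows from choosing the genes by p. Over all genes tested the groups did not overlap for 17.1%. The 3 normal BAMBI points lie below their arrays' medians, so BAMBI passed the filter through the laminitis arrays alone.

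In whole tissue a change in the share of a cell type and a change in RNA per cell cannot be told apart. Summed signals of the tested markers overlapped between the groups in each list that could be summed, and 0 of the markers were called in limma with Benjamini-Hochberg adjustment. Fibroblast markers (10 tested of 11, with 5 higher and 5 lower) summed to between 9107 and 30900 on laminitis arrays and between 9514 and 32160 on normal arrays. Normal replicate 4 had the highest fibroblast sum of the 6 arrays, 32160, and the highest CTGF signal, while laminitis replicate 1 had the lowest sum, 9107, and nearly the same CTGF signal. COL1A1 and COL1A2 had the highest mean signals of the fibroblast markers. They read 2837 and 2252 on laminitis replicate 1, and 8865 and 10278 on normal replicate 4. Both, like COL3A1, are also on the TGF-beta response list, so the sum is not a separate reading of the fibroblast share. The part of the fibroblast share in CTGF was not tested. DCN is itself on the fibroblast list, and the lists' part in its difference was not tested. Basal keratinocyte markers (5 tested of 8, with 3 higher and 2 lower) summed to between 1218 and 1943 in laminitis and between 777 and 1634 in normal tissue. Endothelial markers (5 tested of 10, with 1 higher and 4 lower) summed to between 609 and 772 in laminitis and between 669 and 856 in normal tissue. Smooth muscle markers (4 tested of 8, with 2 higher and 2 lower) summed to between 2991 and 4167 in laminitis and between 3877 and 4987 in normal tissue. Leukocyte markers (4 tested of 10, with 0 higher and 4 lower) summed to between 587 and 699 in laminitis and between 588 and 800 in normal tissue. Platelet markers (2 tested of 9, with 1 higher and 1 lower) summed to between 225 and 479 in laminitis and between 233 and 372 in normal tissue. No tested marker was at 0, and 0 red blood cell markers were bright enough to test. The epidermal keratins KRT5 and KRT14 and the collagens COL1A1 and COL1A2 were among those tested.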

How the data were processed

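Total RNA was labelled after oligo(dT) priming and hybridised to Affymetrix bovine arrays, 1 per sample, per the labels' protocols. The deposited values are linear intensity values per probe set, and they lie on a near-common scale across arrays. The submitters' processing notes name GCRMA, but the linear scale and near-equal trimmed means (148.33 to 148.79) are features of 1 scaling factor per array, so the step is unknown. Detection calls were not used here. Of 24128 probe sets 112 controls were left out, and symbols are those of the platform annotation that GEO holds, some perhaps outdated (13292 probe sets with 1 symbol, 86 with several, 10638 with none). All 9 genes are named in the horse RefSeq table. Array medians ran from 86.7 to 96.6, correlations between arrays from 0.81 to 0.88, and the number of arrays limits the precision.

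Values were put on the log2 scale without offset and fitted over 12519 probe sets with lmFit and eBayes in limma 3.58.1 (R 4.3.3), with two-sided p adjusted by Benjamini-Hochberg. Run on simulated data, the procedure recovered 18.6% of probe sets changed 2-fold and 70.8% of those changed 4-fold. A probe set that was not called may thus still differ. Errors of log2 differences are limma SEs, and folds are of geometric means. The genes and lists were chosen with earlier results of these data known. In each list the 3 genes of smallest p were named, and for CTGF, CYR61, TGFB1 and TGFBI the 3 genes of highest Pearson correlation. Alternatives were 3 filters, 3 normalizations, offsets of 16 and 64, 2 variance models, array weights, the replicate number as a block and leaving out each array.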

Additional observations from a re-analysis of the deposited data

How the results depend on the processing

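No tested TGF-beta ligand, receptor or CCN probe set was called by limma under any of the 12 alternatives or with any array left out. Over the whole table, where the count was 0, limma called 6 probe sets when the filter asked for all 6 arrays, 2 when it asked for 1 array, 4 with an intensity trend and robust variance, and 0 to 2 with 1 array left out. TGFB1, CYR61 and the brighter TGFBR2 probe set kept their signs in each fit that tested them, and TGFB1 left the test when the filter asked for all 6 arrays. TGFBR1 became 0.0028 when arrays were centred on their medians and 0.14 with the replicate number as a block, where CTGF became -0.42, TGFB1 0.86 and the untested dimmer TGFBR2 probe set -0.77. Under quantile and cyclic loess normalization THBS1 became -0.12 and -0.17, and ITGB5 -0.079 and -0.26. With 1 array left out TGFB2 ranged from -0.08 to 0.28, TGFBR1 from -0.19 to 0.081, TGFBI from -0.35 to 0.11, CTGF from -0.087 to 1.45 and BMPR1B from -0.10 to 0.42. The cause of these turns was not tested. BAMBI ranged from 1.46 to 2.89 over alternatives with all arrays. The dimmer TGFBR2 probe set ranged from -0.49 to 0.96 and TGFB1 from 0.88 to 2.09 with 1 array left out. Replicate numbers 3 and 4 occur in both groups, and same-numbered arrays deviated from their group means with correlations of -0.02 and -0.03. Over all pairs of a laminitis and a normal array such correlations ran from -0.04 to 0.06. So few arrays cannot show whether same-numbered samples share a source or batch, and the labels do not say. With the replicate block limma called 0 probe sets. Signals below the array median make folds of TGFB1, TGFB3, INHBA and BAMBI depend on background.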
